A study of Capra hircus with 6 samples.

Results

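Oligodendrocytes are the glial cells that wrap axons of the central nervous system in myelin, and their genes are described here in the medio-basal hypothalamus of adult Alpine goats (Capra hircus). The set holds 35 named genes of the oligodendrocyte lineage and of myelin, from proliferating precursors to mature myelinating cells. Of these, 32 were found by gene symbol in the count table of 28907 rows, and NKX2-2, whose row carries no symbol, was found by its gene identifier, 102182050, through the RefSeq gene table. NKX6-2 and PTGDS matched no row and were not analysed here. All 33 matched genes passed the filter on low counts, which kept 16756 genes in all.

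The lineage begins with precursors that carry the platelet-derived growth factor receptor PDGFRA and the proteoglycan CSPG4 (NG2) and that persist in the adult brain. Cells that leave this state pass through a committed stage marked by GPR17 and BCAS1, and then, under transcription factors such as SOX10 and MYRF, switch on the genes of the myelin sheath. In the base of the hypothalamus, precursors and newly formed oligodendrocytes are known to be present in the adult median eminence. The hypothalamus is also bordered by the optic tract and crossed by the fornix, both heavily myelinated.

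The series covers 18 goats. Sampling in January took 5 in the follicular and 5 in the luteal phase, and sampling in mid-May took 8 in seasonal anestrus, when ovarian cycles cease. For each condition 2 random equimolar mixes of the goats' RNA were sequenced, so each library is a pool, and how many goats entered a pool is not given in the sources used here. The comparison below sets the follicular phase against anestrus, with 2 pools each, and the luteal pools were not analysed here. Breed, adult age and tissue were the same in both groups, while season and ovarian state differed together and cannot be told apart. P-values measure the spread between pools, not between goats.

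Totals ran from 14553821 to 25292678 counts per pool. Levels are given as CPM, the counts scaled to a common library total after TMM normalization, listed for follicular pools 1 and 2 and then anestrus pools 1 and 2. Neuronal and hypothalamic identity of the tissue showed in SNAP25, a synaptic vesicle fusion protein, at 418 to 589 CPM, and in NKX2-1, a transcription factor of the ventral hypothalamus, at 20.2 to 33.6 CPM. TSHB, the thyrotropin beta subunit made by the pars tuberalis of the pituitary, was at 4.80 and 6.80 CPM in the follicular pools and at 1200 and 811 CPM in the anestrus pools, so the dissected block also held pituitary RNA. With a threshold of 0.05 on the adjusted p (edgeR, quasi-likelihood), 34 of 16756 genes were called, or 0.203% of those tested, split into 0.0119% higher and 0.191% lower in the follicular phase.

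Most oligodendrocyte genes had higher levels in the follicular phase than in anestrus, though no single gene passed the adjusted threshold. With libraries scaled to astrocyte markers, which shifts every gene, the median of the members was -0.01 and that of all genes -0.72. Of the 33 measured members, 29 had a log2 fold change above 0 (follicular minus anestrus), against 49.9% of all genes tested. Both follicular pools lay above both anestrus pools for 23 members, against 17.6% of all genes, and the reverse held for 1 member, TCF7L2, against 20.7%. At an unadjusted p under 0.05, 19 members were higher in the follicular phase, where 4.26% of all genes were, and 0 were lower, where 4.29% were. After adjustment over all genes 0 of 33 passed (edgeR's quasi-likelihood test, 2 residual degrees of freedom), and the smallest adjusted p among members was 0.164, for HAPLN2. The DESeq2 Wald test called 5 members, BCAS1, MYRF, MOBP, HAPLN2 and GPR37, all higher in the follicular phase, and 0.853% of all genes. With no filter on low counts 13 members were called, again all higher, and 1.38% of all genes.

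The median log2 fold change of the 33 members was 0.70, beside 0.00 over all genes tested, and single members ran from -0.49 to 1.31. At least 2-fold higher in the follicular phase were 4 members, HAPLN2, KLK6, MYRF and GPR17, while 1.62% of all genes reached that size. In tissue RNA, fewer oligodendrocytes and less RNA per cell cannot be told apart.

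**Figure D1:**
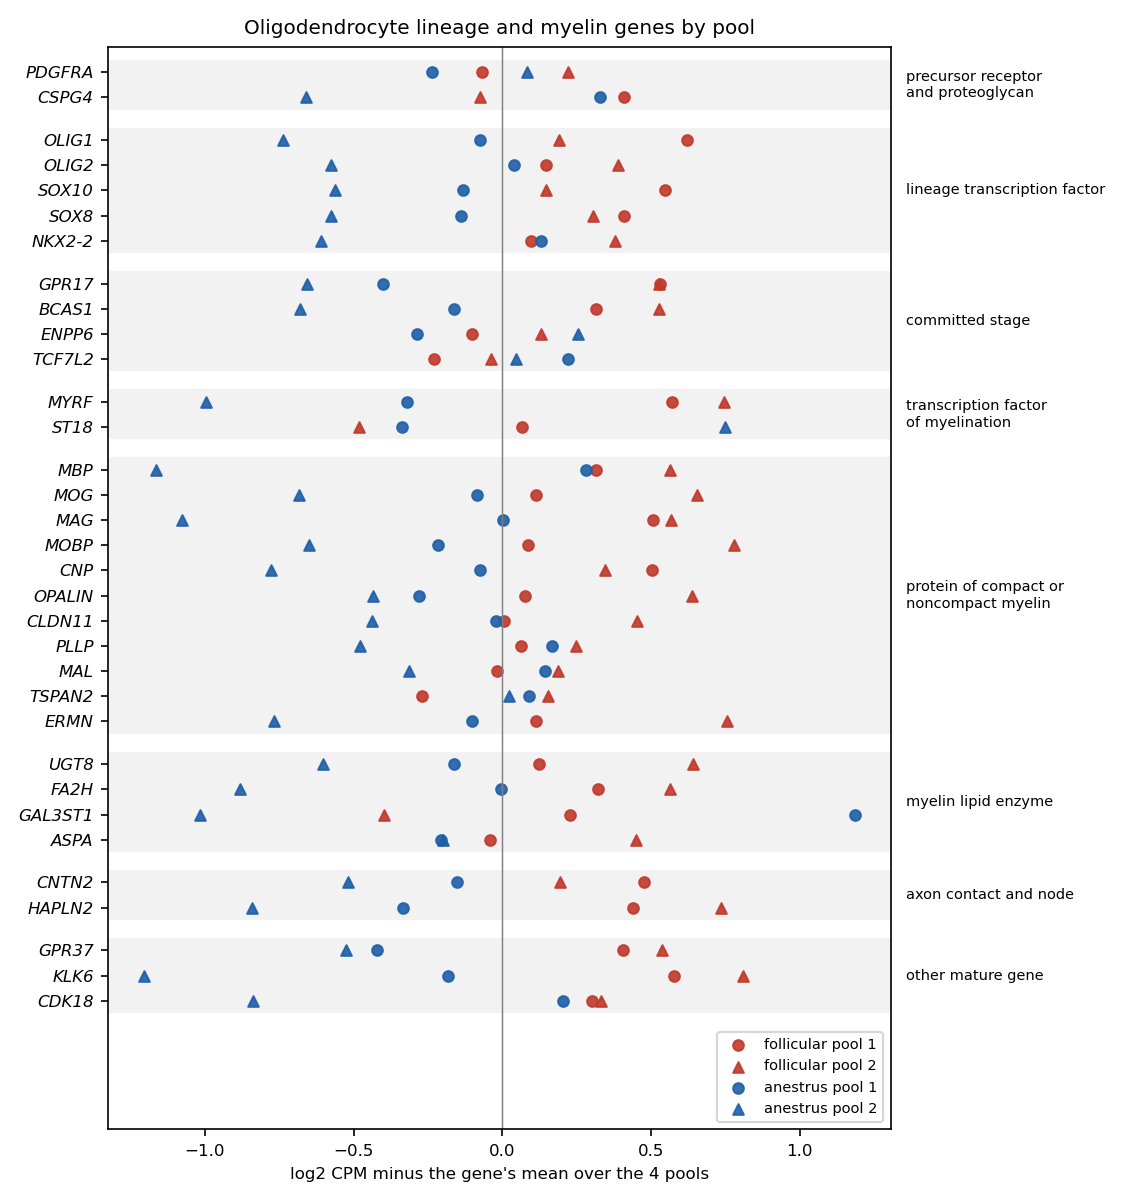
Level of each of the 33 measured genes in each pool, as log2 CPM minus the gene's mean over the 4 pools (horizontal axis), with genes grouped by role; red marks are follicular pools, blue marks anestrus pools, circles pool 1 and triangles pool 2. Both red marks lie to the right of both blue marks for 23 genes, and anestrus pool 2 is most often the lowest.

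Both precursor surface markers showed small differences. PDGFRA, the receptor through which platelet-derived growth factor drives precursor division, was at 127 and 155 CPM in the follicular phase against 113 and 141 CPM in anestrus. The groups overlapped, and the log2 fold change was 0.14 ± 0.18 (SE, n = 2 pools each). CSPG4, the NG2 proteoglycan, was near the low end of what was counted, at 5.12, 3.66, 4.84 and 2.44 CPM (130, 63, 69 and 44 counts). Its groups overlapped too, with a log2 fold change of 0.28 ± 0.43. Both genes are also made outside the lineage, PDGFRA in fibroblasts and CSPG4 in pericytes. For the 10 measured meningeal and fibroblast markers the median log2 fold change was -0.35, with summed levels of 1106 and 1254 CPM in the follicular phase against 1780 and 1599 CPM in anestrus. The 9 measured pericyte and mural markers, CSPG4 among them, had a median of 0.10. Their part in the values of PDGFRA and CSPG4 was not tested.

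Of the 5 transcription factors of the whole lineage, 4 had both follicular pools above both anestrus pools, 3 were higher at an unadjusted p under 0.05 and 0 were called (edgeR). The same shares over all genes were 17.6%, 4.26% and 0.203%. OLIG1, a basic helix-loop-helix factor of oligodendrocyte maturation, was at 40.8 and 30.3 CPM against 25.2 and 15.9 CPM, a log2 fold change of 0.79 ± 0.27 (unadjusted p = 0.0151, adjusted p = 0.413, edgeR). OLIG2, which specifies the lineage, was at 27.4 and 32.4 CPM against 25.4 and 16.6 CPM, a log2 fold change of 0.51 ± 0.26. Neither gene's groups overlapped, but follicular pool 1 of OLIG2 was close to anestrus pool 1. SOX10, which activates myelin genes together with MYRF, was at 27.2, 20.6, 17.0 and 12.6 CPM (0.70 ± 0.27), and its relative SOX8 at 30.3, 28.2, 20.7 and 15.3 CPM (0.70 ± 0.24). NKX2-2, a homeobox factor of early differentiation, was lower in counts, at 5.35 and 6.51 CPM against 5.47 and 3.28 CPM, and its groups overlapped. In all 5 of these genes anestrus pool 2 was the lowest pool.

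At the committed stage the 4 genes divided. GPR17, a receptor that is made briefly by differentiating precursors and then lost, was at 9.37 and 9.35 CPM in the follicular pools and at 4.91 and 4.11 CPM in the anestrus pools. The pools of each group lay close together, and the log2 fold change was 1.06 ± 0.32 (unadjusted p = 0.00717, adjusted p = 0.324, edgeR), from 70 and 74 counts in anestrus. BCAS1, a protein of newly formed and early myelinating oligodendrocytes, was at 107 and 124 CPM against 76.8 and 53.6 CPM, a log2 fold change of 0.83 ± 0.20. ENPP6, a choline phosphodiesterase of newly forming oligodendrocytes, did not share this pattern. Its pools were at 18.3, 21.5, 16.1 and 23.4 CPM, and the log2 fold change was 0.01 ± 0.27. TCF7L2, a mediator of Wnt signalling in differentiating oligodendrocytes that is also made by thalamic neurons, was the member whose anestrus pools both lay above the follicular pools, at 44.8 and 51.2 CPM against 61.2 and 54.2 CPM. Its log2 fold change was -0.27 ± 0.18 (unadjusted p = 0.178). The 13 markers of the thalamus and neighbouring areas, NKX2-1 among them, summed to 343 and 374 CPM in the follicular pools and to 440 and 514 CPM in the anestrus pools. Much of that sum was RORB, at 198 and 219 CPM against 282 and 370 CPM. The median log2 fold change of the 13 markers had the other sign, at 0.23, and 7 of them were above 0. Their part in the value of TCF7L2 was not tested.

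Among transcription factors of the myelinating stage, MYRF and ST18 went opposite ways. MYRF, the membrane-bound factor required to start and to maintain myelin gene expression, was at 12.5 and 14.1 CPM in the follicular pools and at 6.73 and 4.22 CPM in the anestrus pools. That was 2.44-fold higher in the follicular phase, a log2 fold change of 1.29 ± 0.33 (unadjusted p = 0.00259, adjusted p = 0.25, edgeR). ST18, a zinc finger factor of the MYT1 family found in mature oligodendrocytes and some neurons, was at 27.8 and 19.0 CPM against 21.0 and 44.6 CPM. The groups of ST18 overlapped, with anestrus pool 2 the highest, as it was for ENPP6, and its log2 fold change of -0.49 ± 0.36 became 0.20 without that pool.

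The proteins of the sheath were mostly higher in the follicular phase, with 8 of 11 showing no overlap and 7 at an unadjusted p under 0.05. Over all genes 17.6% and 4.26% were higher in these ways. MOG, a glycoprotein on the outer surface of myelin, was at 88.7 and 129 CPM against 77.3 and 51.1 CPM, and MAG, the adhesion protein of the innermost wrap, at 51.0 and 53.2 CPM against 36.0 and 17.0 CPM. Their log2 fold changes were 0.76 ± 0.25 and 0.98 ± 0.32. MOBP, a basic protein of compact myelin, was at 291 and 471 CPM against 236 and 175 CPM (0.89 ± 0.25). CNP, the phosphodiesterase of the cytoplasmic channels in myelin, was at 202 and 181 CPM against 135 and 83.1 CPM, a log2 fold change of 0.81 ± 0.22 (unadjusted p = 0.00503, adjusted p = 0.301, edgeR). OPALIN, a membrane glycoprotein of oligodendrocytes, was at 137 and 202 CPM against 107 and 96.1 CPM (0.74 ± 0.20). ERMN, a cytoskeletal protein of late myelination, was at 109 and 170 CPM against 93.9 and 59.2 CPM (0.86 ± 0.27). In MOG, MOBP, OPALIN and ERMN follicular pool 1 was closer to anestrus pool 1 than to follicular pool 2, and in MAG and CNP the follicular pools were closer to each other.

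MBP, which holds the cytoplasmic faces of compact myelin together, had the widest spread between anestrus pools among the sheath proteins. It was at 876 and 1041 CPM in the follicular pools and at 855 and 314 CPM in the anestrus pools. Anestrus pool 1 was thus at nearly the level of follicular pool 1, and anestrus pool 2 was 2.72-fold below anestrus pool 1, a drop that 2.58% of all genes matched or exceeded. The log2 fold change was 0.71 ± 0.50 (unadjusted p = 0.217), and leaving out anestrus pool 1 gave 1.61, leaving out anestrus pool 2 gave 0.21. Gene-level counts do not separate the classic MBP transcripts from the longer Golli transcripts of the same locus.

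The other sheath proteins differed less. CLDN11, the claudin of the tight junctions between myelin layers, was at 110 and 150 CPM against 108 and 80.9 CPM (0.46 ± 0.21). PLLP, MAL and TSPAN2, 3 membrane-spanning proteins of myelin, differed by 0.28 ± 0.24, 0.16 ± 0.21 and -0.10 ± 0.24 on the log2 scale, and their groups overlapped. TSPAN2 pools were at 18.7, 25.1, 24.0 and 22.9 CPM, a set in which follicular pool 1 was the lowest.

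Enzymes of myelin lipids followed the sheath proteins with 1 exception. UGT8, which makes galactosylceramide, was at 75.3 and 108 CPM against 61.8 and 45.5 CPM, a log2 fold change of 0.77 ± 0.22 (unadjusted p = 0.00621, adjusted p = 0.313, edgeR). FA2H, which hydroxylates the fatty acids of myelin sphingolipids, was at 7.04 and 8.31 CPM against 5.61 and 3.05 CPM (0.83 ± 0.38). ASPA, which releases acetate from N-acetylaspartate for lipid synthesis, was at 31.8 and 44.7 CPM against 28.4 and 28.5 CPM (0.42 ± 0.23). None of these 3 genes overlapped between groups. GAL3ST1, which adds sulfate to galactosylceramide to form sulfatide, had only 57, 25, 62 and 17 counts, or 2.24, 1.45, 4.35 and 0.944 CPM. Its anestrus pools were 4.60-fold apart, so its log2 fold change of -0.48 ± 0.66 gives no direction.

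The 2 members with the smallest p-values were HAPLN2 and GPR37. HAPLN2, a link protein of the hyaluronan matrix at nodes of Ranvier, was at 32.3 and 39.7 CPM in the follicular pools and at 18.9 and 13.3 CPM in the anestrus pools, 2.24-fold higher, with a log2 fold change of 1.16 ± 0.25 (unadjusted p = 0.000782, adjusted p = 0.164, edgeR). GPR37, a receptor of mature oligodendrocytes that also occurs in neurons, was at 36.4 and 39.9 CPM against 20.5 and 19.1 CPM, with a log2 fold change of 0.94 ± 0.21 (unadjusted p = 0.00108, adjusted p = 0.192, edgeR). Its 2 groups stood well apart, and the pools within each group were close. KLK6, a secreted serine protease of oligodendrocytes, was at 12.6 and 14.8 CPM against 7.43 and 3.66 CPM, and its log2 fold change of 1.31 ± 0.37 was the largest of the members. CNTN2, an adhesion protein of the juxtaparanode that neurons also make, was at 146 and 120 CPM against 94.5 and 73.2 CPM (0.66 ± 0.19). CDK18, a cyclin-dependent kinase of the lineage, was at 13.7 and 14.0 CPM against 12.8 and 6.22 CPM (0.55 ± 0.35), so its lack of overlap rested on a narrow gap to anestrus pool 1.

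**Figure D2:**
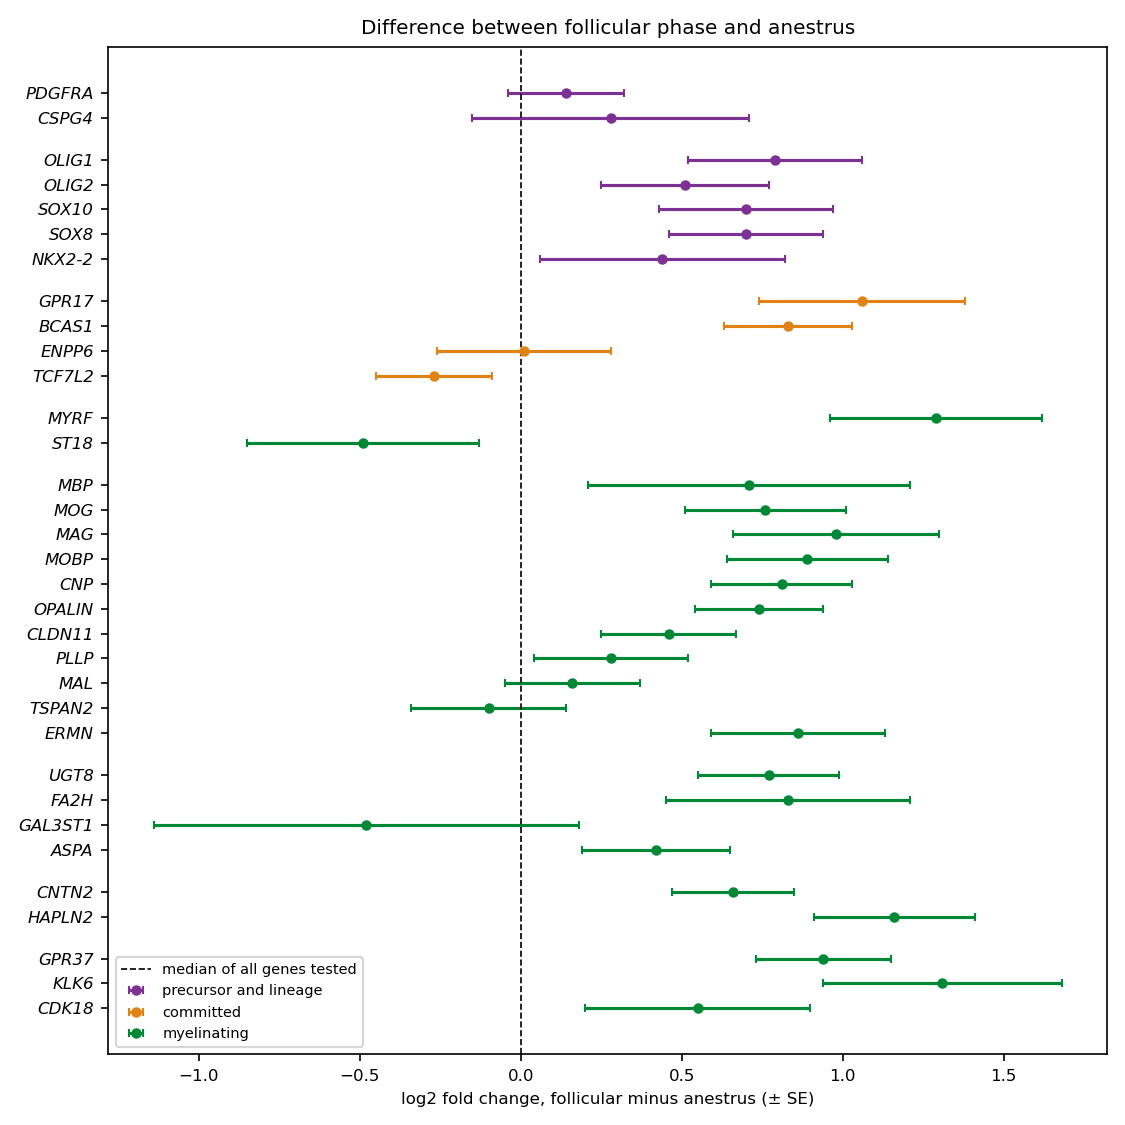
Log2 fold change of each member, follicular minus anestrus, with its standard error from edgeR (horizontal axis, n = 2 pools per group), coloured by stage; the dashed line is the median of all 16756 genes tested. Members run from -0.49 for ST18 to 1.31 for KLK6, and 4 lie below 0.

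By stage, the median log2 fold change was 0.51 for the 7 precursor and lineage genes, 0.42 for the 4 committed genes and 0.75 for the 22 myelinating genes. The ranges were 0.14 to 0.79, -0.27 to 1.06 and -0.49 to 1.31, so the stages overlapped widely, and a difference between stages was not tested. Groups did not overlap, with the follicular pools higher, for 4 of 7, 2 of 4 and 17 of 22 genes, beside 17.6% of all genes. Within the first stage, the cell surface markers PDGFRA and CSPG4 had a median of 0.21 and the 5 lineage transcription factors one of 0.70.

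Ratios of members within a pool, which do not depend on how libraries are scaled, differed among the 4 committed genes when set against PDGFRA. The CPM ratio of GPR17 to PDGFRA was 0.0740 and 0.0605 in the follicular phase against 0.0432 and 0.0292 in anestrus, and that of BCAS1 to PDGFRA was 0.846 and 0.801 against 0.676 and 0.381. Neither ratio overlapped between groups. ENPP6 to PDGFRA overlapped, at 0.144 and 0.139 against 0.141 and 0.166, and TCF7L2 to PDGFRA was lower in the follicular pools, at 0.354 and 0.331 against 0.539 and 0.385. Differences in these ratios were not tested.

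The pools of one group differed in a shared direction. Anestrus pool 1 was above anestrus pool 2 in 29 of 33 members, where 53.8% of all genes were. Follicular pool 2 was above follicular pool 1 in 24 of 33, where 49.8% of all genes were. The sample titles number both anestrus pool 1 and follicular pool 2 as replicate 2, though no pairing of pools is stated. The full order of follicular pool 2, follicular pool 1, anestrus pool 1 and anestrus pool 2, from high to low, held for 16 of 33 members and for 3.52% of all genes. Within the stages it held for 1 of 7 precursor and lineage genes, 1 of 4 committed genes and 14 of 22 myelinating genes. OLIG1, SOX10, SOX8, CSPG4, CNP, CNTN2, ST18 and GAL3ST1 were higher in follicular pool 1 than in pool 2, and GPR17 was at nearly the same level in both. Mean log2 CPM of the 33 members, centred on the 4 pools, was 0.23, 0.37, -0.05 and -0.55, so anestrus pool 1 was closer to follicular pool 1 than to anestrus pool 2.

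**Figure D3:**
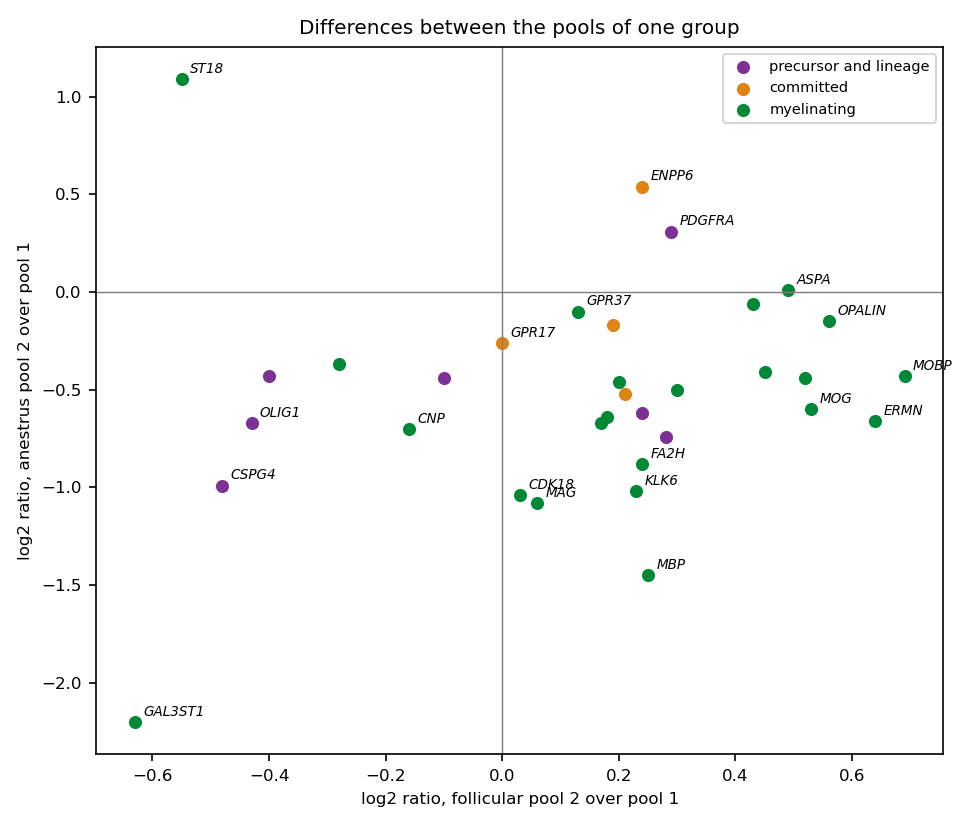
Log2 ratio of pool 2 to pool 1 within the follicular group (horizontal axis) and within the anestrus group (vertical axis) for each member, coloured by stage. Most points lie below the horizontal line, where anestrus pool 1 is higher (29 of 33), with MBP at -1.45 and GAL3ST1 at -2.20, and to the right of the vertical line, where follicular pool 2 is higher (24 of 33).

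The number of members called differed with the pool left out. Without anestrus pool 1, 20 members passed an adjusted p of 0.05, 19 of them higher in the follicular phase and ST18 lower, when 4.72% of all genes passed. Without anestrus pool 2, MOBP, OPALIN, HAPLN2 and GPR37 passed, when 3.39% of all genes did. Without follicular pool 1 or pool 2, 0 members passed, when 0.0233% and 0.553% of all genes did. A fit that leaves out a pool has a lone sample in that group, which is assumed to vary like the other group. The median of the members was then 0.98 and 0.53 with anestrus pools 1 and 2 left out in turn, and 0.67 and 0.50 with follicular pools 1 and 2 left out.

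Further genes of mature oligodendrocytes, outside the set, had smaller differences in the same direction. Of 37 measured, 31 had a log2 fold change above 0, against 49.9% of all genes. For 21 both follicular pools lay above both anestrus pools, against 17.6% of all genes. At an unadjusted p under 0.05, 12 were higher and 0 lower, against 4.26% and 4.29%. After adjustment 0 passed, and the median was 0.38. ANLN, the actin-binding protein anillin, which also forms part of septin assemblies in myelin, was at 80.6 and 94.8 CPM against 49.5 and 39.7 CPM (0.98 ± 0.19). Further precursor genes had a median of 0.16 over 17 measured, with 6 showing both follicular pools higher, against 17.6% of all genes. Of the 17, 1 was higher at an unadjusted p under 0.05, against 4.26% of all genes. That gene was SEMA5A, a semaphorin, with a log2 fold change of 0.70 ± 0.20.

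Lists of genes that supply or direct myelination had smaller medians than the members. The 20 measured cholesterol synthesis genes had a median of 0.11, with 5 genes higher and 5 lower in both follicular pools. Over all genes 17.6% were higher and 20.7% lower in this way. The 16 sphingolipid and very long chain lipid genes had a median of 0.06. EBP, the sterol isomerase of cholesterol synthesis, was at 14.8 and 17.5 CPM in the follicular phase against 24.5 and 24.1 CPM (-0.59 ± 0.24 on the log2 scale). The 23 measured signals and receptors of oligodendrocyte differentiation had a median of 0.28, with 18 above 0, and both follicular pools were higher for 10 and lower for 3. Among them NOTCH1, a receptor that holds precursors back, had a log2 fold change of 0.69 ± 0.24, and its target HES1 went the other way at -0.51 ± 0.20. None of these 3 lists had a gene past the adjusted threshold (edgeR).

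All measured markers of neurons, astrocytes and microglia had a log2 fold change above 0, against 49.9% of all genes. Most measured markers of meninges and pituitary had one below 0. For the 12 measured neuron markers the median log2 fold change was 0.35, with summed levels of 6522 and 7070 CPM in the follicular phase against 5982 and 5325 CPM in anestrus. The 10 astrocyte markers had a median of 0.57 and summed to 11374 and 12424 CPM against 7403 and 7482 CPM. GFAP, the astrocyte intermediate filament, was called (1.01 ± 0.15, adjusted p = 0.0316, edgeR). The 11 microglia markers had a median of 0.24. Both follicular pools lay above both anestrus pools for 7 of 12 neuron, 10 of 10 astrocyte and 4 of 11 microglia markers. Over all genes 17.6% were higher in this way. The 11 measured pituitary and pars tuberalis markers had a median of -0.93 and summed to 7326 and 5673 CPM against 15989 and 12386 CPM, with 3 called lower, TSHB, CGA and EPCAM. No measured marker of these 4 lists was at 0 in every pool, which the filter on low counts already ensured. The part of these shifts in the values of the oligodendrocyte genes was not tested.

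**Figure D4:**
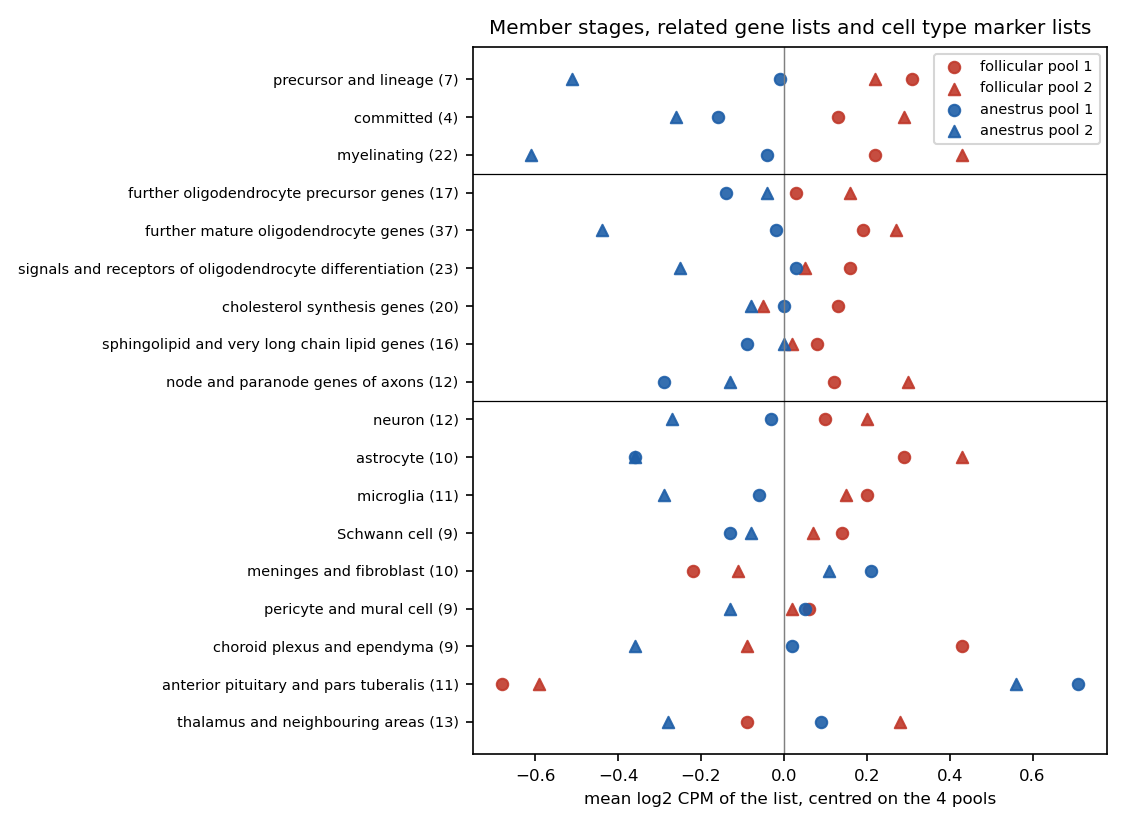
Mean log2 CPM of each gene list in each pool, centred on the 4 pools (horizontal axis), for the 3 stages of the members, for related gene lists and for cell type markers, with the number of genes measured in parentheses; colours and marks as red for follicular, blue for anestrus, circle for pool 1 and triangle for pool 2. Myelinating genes sit at 0.22, 0.43, -0.04 and -0.61, neuron markers at 0.10, 0.20, -0.03 and -0.27, and pituitary markers lie the other way.

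Scaling to the neuron or astrocyte markers, which were themselves higher in the follicular pools, lowers the log2 fold change of every gene, members included. Scaling to the lists that were lower there, of meninges and pituitary, was not run. With libraries scaled to the neuron markers, a setting chosen after the data were seen that moved the median of all genes to -0.30, the median of the members was 0.42, and 10 members were higher and 2 lower at an unadjusted p under 0.05, where 0.859% and 15.7% of all genes were. With libraries scaled to the astrocyte markers, which moved the median of all genes to -0.72, it was -0.01, with 0 members higher and 6 lower, where 0.0836% and 57.7% of all genes were. In single ratios, MOG to SNAP25 was 0.161 and 0.218 in the follicular phase against 0.163 and 0.122 in anestrus, and MOG to GFAP was 0.0185 and 0.0266 against 0.0332 and 0.0207. Both ratios overlapped between groups. These scalings shift every gene by about the same amount, so the gap between the members and all genes could hardly change. The median of the members lay 0.72 and 0.71 above the shifted medians of all genes, beside 0.71 with TMM. That gap therefore does not show what part neurons or astrocytes had in the values of the members.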

How the data were processed

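Messenger RNA of pooled goat medio-basal hypothalamus was sequenced from stranded libraries, per the labels' protocols. The authors deposited unnormalized counts of reads per gene. Per the submitters' processing notes, tools included TopHat2 2.1.1 with Bowtie2 2.3.5.1, and featureCounts 2.0.0. The sources used here do not give the genome build, annotation, strand setting or treatment of multi-mapping reads, so no coordinates are printed and no levels are compared between genes per length. Columns were matched to samples by library name; the titles number the anestrus pools in the opposite order.

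From these counts, genes were kept with filterByExpr (minimum count 10, minimum total 15), TMM factors were applied, and edgeR 4.0.16 (R 4.3.3) gave the tests (glmQLFit with robust estimation, glmQLFTest), with Benjamini-Hochberg adjustment over 16756 genes and a threshold of 0.05. Log2 fold changes are follicular minus anestrus, with standard errors. Alternatives were DESeq2 1.42.0, limma 3.58.1, other scalings and filters, replicate blocks, leaving out each pool, and, added after the data were seen, scaling to neuron or astrocyte markers. Centred log2 CPM used a prior count of 2. Of 235 entries in the related and marker lists, 225 matched a row, 224 by symbol and 1 by gene identifier. Genes named outside the members are reference genes, called genes, or the 2 of a list with the smallest p, except NKX2-1, CNTN1 and NFASC, named after their values were seen; some genes that this rule names are not reported here. The members, stages and lists were chosen with earlier results of these data known.

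On simulated counts for the follicular and anestrus pools over 16563 genes, the same edgeR test recovered 39.1% of 2-fold, 98.5% of 4-fold and 100% of 8-fold changes, with 11 false calls among 168. The simulation gave every gene the same biological coefficient of variation, set near the common estimate of 0.201, and independent noise. In the real pools the spread differed between genes and the members shifted together, so these rates are not the power for the members.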

Additional observations from a re-analysis of the deposited data

How the results depend on the processing

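None of 14 other settings turned the median of the 33 members, which ran from 0.50 to 0.98 when single pools were left out; the stage medians then ran from 0.35 to 0.85 (precursor and lineage), 0.30 to 0.54 (committed) and 0.51 to 1.04 (myelinating). Members called ran from 0 to 20, members at an unadjusted p under 0.05 from 12 to 24, and genes called over the table from 4 to 810, beside 0, 19 and 34 with all pools. The DESeq2 Wald test called 143 genes and 5 members, and omitting the count filter 300 genes and 13 members (MOG, MAG, CNP and UGT8 among them). Of the values of single members under these settings, 404 kept their direction and side of the threshold, 49 newly passed it and 9 changed sign. Leaving out single pools turned PDGFRA (-0.01 to 0.35; 0.00 without anestrus pool 1), CSPG4 (-0.09 to 0.85), ENPP6 (-0.24 to 0.35), ST18 (-0.93 to 0.20), MAL (-0.01 to 0.40), TSPAN2 (-0.33 to 0.12) and GAL3ST1 (-1.17 to 0.98). The cause was not tested.

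The pools share replicate numbers but no stated pairing, and deviations of same-numbered pools correlated at 0.26 by library name and -0.26 by title. With a replicate block by library name, 90 genes and 0 members were called, and by title 130 genes and 7 members.

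Scaling to neuron markers gave 416 calls over the table, 12 members at an unadjusted p under 0.05, and medians of 0.42 (all members), 0.23 (precursor and lineage), 0.12 (committed) and 0.47 (myelinating), and turned PDGFRA to -0.17, ENPP6 to -0.31 and MAL to -0.12. Scaling to astrocyte markers gave 7918 calls, 4 members called, all lower (PDGFRA, TCF7L2, ST18 and TSPAN2), 6 at an unadjusted p under 0.05, and medians of -0.01, -0.22, -0.31 and, for myelinating genes, 0.02. It turned PDGFRA to -0.58, CSPG4 to -0.42, OLIG2 to -0.22, SOX10 to -0.01, SOX8 to -0.01, NKX2-2 to -0.28, ENPP6 to -0.71, MBP to -0.01, CLDN11 to -0.27, PLLP to -0.44, MAL to -0.56, ASPA to -0.30, CNTN2 to -0.05 and CDK18 to -0.17. Both scalings shift every gene by about the same amount. Low counts, at most 136 in any pool, limit CSPG4, NKX2-2 and GAL3ST1. Counts in anestrus pools 1 and 2 were also low for KLK6 (106 and 66), MYRF (96 and 76), GPR17 (70 and 74) and FA2H (80 and 55).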

Other observations

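Of 12 genes listed for the nodes and paranodes of axons, 10 had a log2 fold change above 0, and CNTN1 (-0.31 ± 0.20) and NFASC (-0.11 ± 0.16) had one below 0. Tissue counts do not show which cells made these transcripts. After adjustment 0 passed (edgeR). At an unadjusted p under 0.05, 5 were higher and 0 lower, against 4.26% and 4.29% of all genes. The median log2 fold change of these node and paranode genes was 0.36, close to the 0.35 of the neuron markers. Both follicular pools lay above both anestrus pools for 7 of these genes, against 17.6% of all genes. CNTNAP1, the axonal partner of the paranodal junction, was at 131 and 124 CPM in the follicular pools and at 98.6 and 85 CPM in the anestrus pools, a log2 fold change of 0.47 ± 0.17. KCNA1, a potassium channel subunit clustered at juxtaparanodes, was at 2.75 and 5.93 CPM against 1.61 and 1.44 CPM (1.49 ± 0.49), from 23 and 26 counts in anestrus. The order of pools differed from that of the myelin genes, since anestrus pool 1 was the lowest pool for the list, with a mean centred log2 CPM of -0.29, and anestrus pool 2 was at -0.13.

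NGFR, the neurotrophin receptor p75, entered in the list of Schwann cell markers, was at 35.5 and 22.7 CPM in the follicular pools and at 54.8 and 62.6 CPM in the anestrus pools, which gave -1.01 ± 0.24 on the log2 scale (adjusted p = 0.218, edgeR). Over the 9 measured genes of that list the median was 0.40, with 2 higher and 2 lower at an unadjusted p under 0.05. Over all genes 4.26% were higher and 4.29% lower.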
